A study of Homo sapiens with 12 samples.

Results

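Cells make cholesterol and fatty acids from acetyl-CoA, and the 35 genes described here cover that work: 8 early enzymes of the mevalonate pathway, 11 late enzymes that build and finish the sterol, 5 genes that control the SREBP transcription factors, 2 genes of sterol uptake and transport, 2 of sterol efflux and 7 of fatty acid synthesis. They were taken by gene symbol from a list of these functions, chosen with earlier results of these data known. All 35 were found among the 60607 gene IDs of the count table. After removal of genes with low counts, 34 of them were tested among 17320 genes. The remaining one, ABCG1, which encodes a sterol exporter best known from macrophages, had 0 to 2 counts per library.

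Messenger RNA was sequenced in 12 libraries of AC16 cells, a human line derived from a fusion of adult human ventricular cells with a transformed fibroblast line. The 4 groups of 3 libraries were wild-type cells in medium (labelled DMEM, the control) and the same wild-type line given 0.1 µM doxorubicin for 2, 4 or 6 days, and all were grown in medium with fetal bovine serum. Doxorubicin is an anthracycline that stabilises breaks made by topoisomerase II, and the study asked what it changes in these cells as a model of its toxicity to the heart. The titles state 48, 96 and 112 hours, which for the longest exposure is less than the 6 days of the design text. Every title also says day 6, and nothing states whether each exposure ended at harvest. The line is 1 culture model without a heart's other cells, and no label states that replicates were grown apart. The p-values therefore reflect only how far the 3 libraries of each group spread, which may be technical.

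Library totals lay between 14835743 and 21226441 counts. The label calls the cells cardiomyocytes, but the 10 cardiomyocyte markers summed to only 0.841 to 1.45 CPM (counts scaled to the library size) in any library, and MYL2 had 0 counts in all 12. The 8 fibroblast markers, collagens among them, summed to 5814 to 6132 CPM in control libraries and 8608 to 8822 CPM at 2 days. At 4 days they summed to 5306 to 5946 CPM and at 6 days to 4572 to 5046 CPM. These markers did not move together. At 2 days COL1A1 was at 4284 to 4697 CPM (control 2319 to 2772) but LUM at 147 to 157 CPM (control 206 to 221). At 6 days FAP was at 183 to 193 CPM (control 112 to 134) but DCN at 60.8 to 69.3 CPM (control 123 to 128). The part of these differences in the results below was not tested. Adipocyte markers stayed at 0.18 to 0.616 CPM and hepatocyte markers at 0 to 0.679 CPM across all libraries. Macrophage markers summed to 5.75 to 8.17 CPM in control libraries and to 12.7 to 15.1 CPM at 6 days. Of these, CD68 was at 1.39 to 3.09 CPM in control libraries and 6.65 to 9.14 CPM at 6 days. CD14 went the other way, with 1.19 to 1.9 CPM in control libraries and 0.163 to 0.417 CPM at 6 days. Over all libraries, endothelial markers summed to 19.6 to 26.8 CPM and steroidogenic markers to 0.661 to 2.38 CPM. The share of counts from mitochondrial genes was 6.01 to 8.26% in the control, 5.51 to 7.74% at 2 days, 8.01 to 8.34% at 4 days and 5.77 to 6.8% at 6 days. In such bulk samples, fewer cells of a type and less RNA per cell cannot be told apart.

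Most of these genes answer to the sterol regulatory element-binding proteins, SREBP-1 and SREBP-2, which are made as membrane proteins of the endoplasmic reticulum. When membrane cholesterol is low, the escort protein SCAP carries them to the Golgi, where proteases release the part that enters the nucleus and switches on sterol and fatty acid genes. When cholesterol is ample, INSIG proteins hold SCAP back, and oxysterols activate the liver X receptors (LXR), which raise cholesterol exporters. Doxorubicin is known for damage to the heart, an organ that burns fatty acids for most of its energy.

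SREBPs and their partners act by binding short runs of letters in promoters, so windows of 7 genes whose values are described below are shown, each from 250 bases before to 50 bases after the gene start. The sequences are those of RefSeq on GRCh38.p14, written 5′ to 3′ on the sense strand of each gene, the one that reads like its RNA. HMGCS1, MSMO1 and DHCR7 stand for early, middle and last enzymes, SREBF2 and INSIG1 for the control loop, SCD for fatty acids and ABCA1 for efflux. Capitals mark CCAAT boxes on either strand (read as CCAAT or ATTGG), the letters bound by the SREBP partner NF-Y, and in SREBF2 also, to the left of its box, the 10 letters of the classical sterol regulatory element bound by SREBP. The ABCA1 window holds neither and so has no capitals. HMGCS1 and DHCR7 have 2 windows each in the table, of which the one with more CCAAT boxes is printed, and the other one of each gene has 0.
HMGCS1 (chr5:43313363-43313662, strand -): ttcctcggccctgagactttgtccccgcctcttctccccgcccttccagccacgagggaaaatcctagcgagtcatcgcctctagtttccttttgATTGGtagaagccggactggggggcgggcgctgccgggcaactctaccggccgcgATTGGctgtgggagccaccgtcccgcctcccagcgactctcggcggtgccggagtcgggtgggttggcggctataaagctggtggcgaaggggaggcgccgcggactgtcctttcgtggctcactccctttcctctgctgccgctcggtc
MSMO1 (chr4:165327419-165327718, strand +): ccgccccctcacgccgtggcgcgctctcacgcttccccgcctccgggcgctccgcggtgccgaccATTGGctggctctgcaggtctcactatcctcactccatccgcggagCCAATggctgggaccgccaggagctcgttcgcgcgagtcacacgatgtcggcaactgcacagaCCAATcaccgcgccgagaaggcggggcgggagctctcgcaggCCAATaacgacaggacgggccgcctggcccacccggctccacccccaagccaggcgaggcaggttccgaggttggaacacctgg
DHCR7 (chr11:71448344-71448643, strand -): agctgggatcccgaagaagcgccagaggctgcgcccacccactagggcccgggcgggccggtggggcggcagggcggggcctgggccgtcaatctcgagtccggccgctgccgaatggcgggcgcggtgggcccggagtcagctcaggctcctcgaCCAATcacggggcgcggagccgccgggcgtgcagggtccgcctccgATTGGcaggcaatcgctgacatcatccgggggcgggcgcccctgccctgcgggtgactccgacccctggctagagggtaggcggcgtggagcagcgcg
SREBF2 (chr22:41832855-41833154, strand +): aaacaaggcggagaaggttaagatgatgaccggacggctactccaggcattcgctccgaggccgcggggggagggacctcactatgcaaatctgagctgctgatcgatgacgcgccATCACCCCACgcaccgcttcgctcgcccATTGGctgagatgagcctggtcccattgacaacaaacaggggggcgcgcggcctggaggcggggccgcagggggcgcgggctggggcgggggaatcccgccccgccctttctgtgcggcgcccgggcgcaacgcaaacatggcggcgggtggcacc
INSIG1 (chr7:155297628-155297927, strand +): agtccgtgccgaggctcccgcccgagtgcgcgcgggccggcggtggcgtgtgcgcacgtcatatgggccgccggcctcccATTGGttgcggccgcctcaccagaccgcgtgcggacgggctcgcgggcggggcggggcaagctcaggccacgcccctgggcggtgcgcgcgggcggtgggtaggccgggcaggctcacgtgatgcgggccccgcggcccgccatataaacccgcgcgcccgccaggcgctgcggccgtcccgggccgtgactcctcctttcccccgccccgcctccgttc
SCD (chr10:100346983-100347282, strand +): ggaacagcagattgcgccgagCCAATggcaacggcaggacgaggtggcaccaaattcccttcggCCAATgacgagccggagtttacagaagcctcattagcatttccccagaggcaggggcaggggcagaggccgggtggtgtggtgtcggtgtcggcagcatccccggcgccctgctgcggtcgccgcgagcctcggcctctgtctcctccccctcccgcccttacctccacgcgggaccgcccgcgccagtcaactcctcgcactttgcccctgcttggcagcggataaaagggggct
ABCA1 (chr9:104928106-104928405, strand -): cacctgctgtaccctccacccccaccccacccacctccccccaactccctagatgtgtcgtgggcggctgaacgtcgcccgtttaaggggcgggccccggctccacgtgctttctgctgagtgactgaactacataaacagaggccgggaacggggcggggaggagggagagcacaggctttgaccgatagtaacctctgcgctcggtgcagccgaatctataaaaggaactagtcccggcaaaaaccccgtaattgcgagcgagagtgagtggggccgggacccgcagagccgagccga

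The table of promoter windows held 42 windows for 30 of the 35 genes and windows for 27305 genes in all, and a gene was counted as holding a motif if any of its windows did, on either strand. A CCAAT box was present in 22 of the 30 (73.3%), in 14 of 16 sterol enzymes with a window (87.5%) and in 42.7% of the 11725 tested genes with a window. Of the 17 genes with a window that were lower at all 3 exposures, a group chosen from its values and so given without a test, 15 held the box (88.2%). MSMO1 has 4 such boxes, the printed windows of HMGCS1, DHCR7 and SCD have 2 each, and SREBF2 and INSIG1 have 1 each. Boxes on opposite strands can overlap, as in IDI1, where they share bases.

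The classical sterol regulatory element, in the exact letters capitalised in the SREBF2 window, was found in SREBF2 alone of the 30, starting 134 bases before the gene start, against 6 of the 11725 tested genes (0.0512%). The looser pattern TCACNCCAC, which overlaps that element, was likewise in SREBF2 alone (3.33% of the 30, against 1.48% of tested genes). The GC box GGGCGG of the factor Sp1 was in 29 of 30 (96.7%, against 74.4% of tested genes). The E-box CACGTG was in 5, ABCA1, INSIG1, LSS, SC5D and SCAP (16.7%, against 12.0%). For LXR only an exact repeat of AGGTCA with 4 bases between the copies was searched. It was in 0 of 30 (against 0.00853% of tested genes). Inexact copies were not searched, and the ABCA1 window holds one, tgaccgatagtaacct, which resembles that repeat when read on the other strand. A match is only a run of letters, and a missing match says only that those exact letters are not in the window.

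Taken over all roles, most of the lipid synthesis genes were lower after doxorubicin at every exposure. Levels are CPM scaled by TMM, log2 fold changes are exposed over control ± SE, and a gene was called at an adjusted p under 0.05 in edgeR's quasi-likelihood test over all 17320 genes. At 2 days 20 of 34 were lower and 3 higher, where 23.4% of all tested genes were lower, 23.8% higher and 47.2% called in either direction. At 4 days 25 were lower and 2 higher, where 17.7% of all genes were lower, 18.8% higher and 36.5% called. At 6 days 24 were lower and 4 higher, where 21.7% of all genes were lower, 22.0% higher and 43.7% called. The median log2 fold change of the 34 was -0.39, -0.73 and -0.73 at 2, 4 and 6 days, beside medians of -0.013, -0.0028 and -0.0061 for all tested genes.

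Of the 34, 19 were lower at all 3 exposures, ABCA1 alone was higher at all 3, and PMVK, FDFT1, SCAP and STARD4 were called at none. The shares of all tested genes in these classes were not counted, so how common such courses are is not known. ELOVL6 was called in both directions. A difference anywhere among the 4 groups was called for 29 of 34, against 63.4% of all tested genes. The 35 genes together took 0.68 to 0.723% of all counts in control libraries, 0.421 to 0.454% at 2 days, 0.329 to 0.355% at 4 days and 0.356 to 0.369% at 6 days. Each exposure was set against the same 3 control libraries, so the 3 comparisons are not independent.

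**Figure D1:**
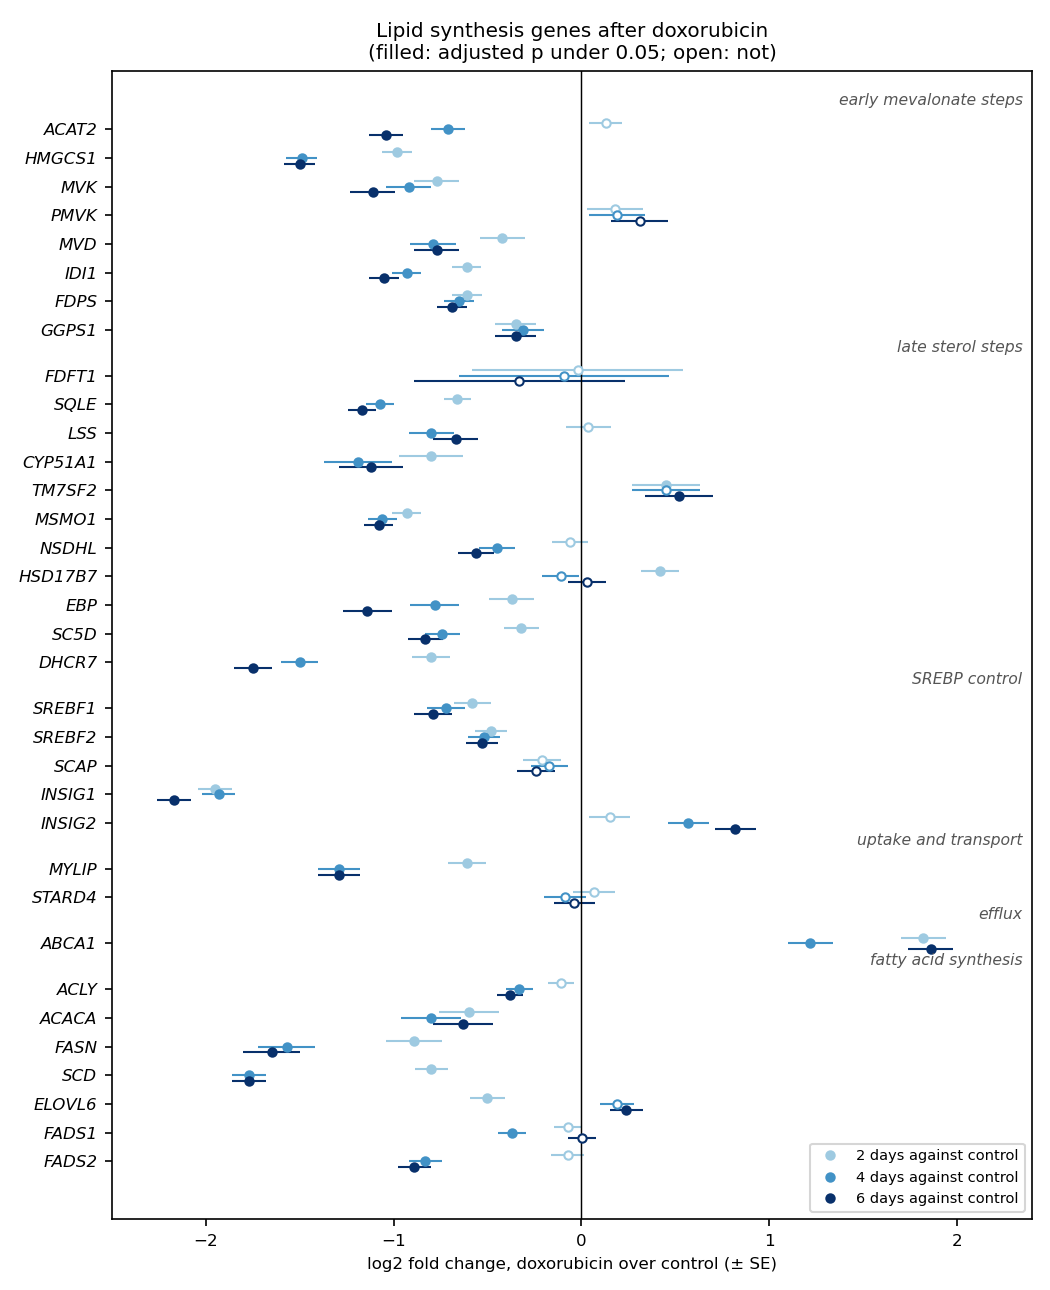
Log2 fold change of each of the 34 tested genes at 2, 4 and 6 days of doxorubicin over control (x axis, bars are SE, 3 libraries a group), grouped by role down the page, with filled points for adjusted p under 0.05. Most points lie left of 0, INSIG1 is farthest left at -1.93 to -2.17, and ABCA1 is farthest right at 1.22 to 1.86.

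The early mevalonate enzymes carry acetyl-CoA to the isoprenoid diphosphates that feed sterols, dolichol and protein prenylation. Of the 8, 6 were lower at 2 days, 7 at 4 days and 7 at 6 days, and 0 were higher. Median log2 fold changes were -0.52, -0.75 and -0.90. The shares called were 75%, 87.5% and 87.5%, against 47.2%, 36.5% and 43.7% of all tested genes. HMGCS1, which joins acetyl-CoA and acetoacetyl-CoA (ENSG00000112972.15, chromosome 5, 43289395 to 43313512 on GRCh38, minus strand), had 458, 431 and 519.8 CPM in control libraries, 246, 241 and 228 CPM at 2 days, 172, 174 and 154 CPM at 4 days, and 167, 171 and 161 CPM at 6 days. Every exposed library lay below every control library, and the 4-day and 6-day values overlapped. Such separation, given for other genes below, was common. In either direction it held for 52.2%, 44.6% and 50.9% of all tested genes at 2, 4 and 6 days against the control. Between exposures it held for 45.9% (4 against 2 days), 27.6% (6 against 4 days) and 52.8% (6 against 2 days). The log2 fold changes were -0.98 ± 0.08, -1.49 ± 0.081 and -1.5 ± 0.081 (adjusted p = 2.74e-10, 2.15e-13 and 1.29e-13), so 6-day cells were 2.82-fold lower than control cells.

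IDI1, the isomerase of isopentenyl diphosphate (ENSG00000067064.12, chromosome 10, 1039152 to 1049170), had 227, 240.1 and 243 CPM in control libraries, 161, 149 and 155 CPM at 2 days, 133, 124 and 116 CPM at 4 days, and 109, 125 and 109 CPM at 6 days. MVK, mevalonate kinase (chromosome 12, 109573255 to 109598117), had 25.9, 32.6 and 24.6 CPM in control libraries, 15.7, 17.1 and 15.9 CPM at 2 days, 14.8, 14.3 and 14.8 CPM at 4 days, and 11.5, 11.8 and 15.1 CPM at 6 days. For both genes no exposed library reached the lowest control library. IDI1 fell by 0.61 ± 0.078, 0.93 ± 0.078 and 1.05 ± 0.079 on the log2 scale, and MVK fell by 0.77 ± 0.12, 0.92 ± 0.12 and 1.11 ± 0.12 (adjusted p at 6 days 6.45e-11 for IDI1 and 7.12e-08 for MVK).

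ACAT2, the cytosolic thiolase that opens the pathway (ENSG00000120437.9, chromosome 6, 159760328 to 159779055), followed another course. It had 165, 176 and 173 CPM in control libraries, 207, 175 and 182 CPM at 2 days, 117, 102 and 94.8 CPM at 4 days, and 90.5, 84.6 and 75.5 CPM at 6 days. The 2-day and control libraries overlapped, while all 4-day and 6-day libraries were below all control libraries. The log2 fold change was 0.13 ± 0.088 at 2 days (adjusted p = 0.22), -0.71 ± 0.089 at 4 days (6.73e-07) and -1.04 ± 0.09 at 6 days (1.06e-09). Of the bases in its exons, 52.3% also lie in exons of SOD2, SOD2-OT1 or TCP1 on the opposite strand, and the strand setting of the counting is not given in the sources used here.

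FDPS, farnesyl diphosphate synthase, averaged 255 ± 27.9 CPM in the control, 167 ± 7.36 CPM at 2 days, 163 ± 4.05 CPM at 4 days and 159 ± 9.42 CPM at 6 days (SD, n = 3 each). FDPS was lower at each exposure, by 0.61 to 0.69 on the log2 scale, with 8 named pseudogenes that could share its reads. MVD, mevalonate diphosphate decarboxylase, averaged 51.0 ± 8.14, 38.1 ± 5.81, 29.5 ± 1.02 and 29.9 ± 3.73 CPM in the control and at 2, 4 and 6 days, and was lower at each exposure. GGPS1, which makes geranylgeranyl diphosphate, was lower by 0.35, 0.31 and 0.35 on the log2 scale, but the call was lost without control replicate 2 at 2, 4 and 6 days (adjusted p = 0.0587, 0.136 and 0.0685). It was lost as well without 2-day replicate 2 (0.0639), 4-day replicate 2 (0.152) or 6-day replicate 1 (0.0654), and 37.3% of its exon bases are shared with TBCE on the same strand.

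PMVK, phosphomevalonate kinase, was the early enzyme that was not called: it averaged 9.36 ± 2.56, 10.5 ± 0.714, 10.7 ± 0.794 and 11.6 ± 0.98 CPM in the control and at 2, 4 and 6 days (SD, n = 3). Control replicate 2 was its highest control value at 12.3 CPM, beside 8.34 and 7.46 CPM in the other two. Without that library, the log2 fold changes of PMVK were 0.41, 0.43 and 0.55 and each was called (adjusted p = 0.0234, 0.0219 and 0.00268).

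The late enzymes turn farnesyl diphosphate into squalene, close the rings and trim lanosterol to cholesterol. Of the 11, 6 were lower and 2 higher at 2 days, and 8 were lower and 0 higher at 4 days. At 6 days 8 were lower and 1 higher, and the medians at 2, 4 and 6 days were -0.32, -0.78 and -0.83. The shares called were 72.7%, 72.7% and 81.8%, against 47.2%, 36.5% and 43.7% of all tested genes. DHCR7, whose enzyme makes cholesterol from 7-dehydrocholesterol (ENSG00000172893.16, chromosome 11, 71428193 to 71452868, minus strand), had 98.3, 109.7 and 105 CPM in control libraries, 55.6, 67 and 57 CPM at 2 days, 33.2, 41.9 and 35.8 CPM at 4 days, and 28.8, 28.9 and 35.2 CPM at 6 days. The 2-day libraries lay between the control and the later ones with no overlap, and the 4-day and 6-day libraries overlapped. DHCR7 fell by 0.80 ± 0.1, 1.5 ± 0.1 and 1.75 ± 0.1 on the log2 scale (adjusted p = 3.38e-07, 1.82e-11 and 7.3e-13), and at 6 days it was 3.36-fold lower than in the control.

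SQLE, squalene epoxidase, the step that first adds oxygen (ENSG00000104549.12, chromosome 8, 124998497 to 125022283), had 202, 200 and 211 CPM in control libraries, 129.7, 125 and 132 CPM at 2 days, 98.7, 103 and 89.6 CPM at 4 days, and 92, 91.4 and 88.4 CPM at 6 days. MSMO1, the C4-methylsterol oxidase (ENSG00000052802.13, chromosome 4, 165327623 to 165343160), had 249.6, 237 and 230.3 CPM in control libraries, 124, 118 and 134 CPM at 2 days, 120.1, 119 and 104 CPM at 4 days, and 116, 112 and 110.4 CPM at 6 days. Neither gene had an exposed library within the range of the control libraries. SQLE fell by 0.66 ± 0.074, 1.07 ± 0.075 and 1.17 ± 0.075 on the log2 scale and MSMO1 by 0.93 ± 0.078, 1.06 ± 0.078 and 1.08 ± 0.078 (adjusted p at 6 days 3.09e-12 and 3.46e-11). MSMO1 had most of its difference by 2 days, since its 4-day level did not differ from its 2-day level (-0.13 ± 0.078, adjusted p = 0.198).

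EBP, the sterol isomerase that binds emopamil (chromosome X, 48521158 to 48528716), had 28.1, 35.9 and 26.6 CPM in control libraries, 25.1, 23.6 and 21.3 CPM at 2 days, 20.5, 14.5 and 17.6 CPM at 4 days, and 13.6, 14.2 and 13.3 CPM at 6 days. CYP51A1, lanosterol demethylase (chromosome 7, 92112151 to 92134803), had 10.6, 6.57 and 8.98 CPM in control libraries, 4.74, 5.54 and 4.86 CPM at 2 days, 3.79, 3.96 and 3.79 CPM at 4 days, and 3.59, 4.2 and 4.21 CPM at 6 days. In both genes every exposed library was below every control library. EBP fell by 0.37 ± 0.12, 0.78 ± 0.13 and 1.14 ± 0.13 on the log2 scale, and the call at 2 days was lost without control replicate 2 (adjusted p = 0.117) or 2-day replicate 3 (0.0822). CYP51A1 fell by 0.80 ± 0.17, 1.19 ± 0.18 and 1.12 ± 0.17, with 79.4% of its exon bases shared with the gene AC000120.2 on the same strand and 3 named pseudogenes, so its counts are uncertain.

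LSS, which folds oxidosqualene into lanosterol, averaged 36.7 ± 4.67, 37.7 ± 4.56, 21.1 ± 2.84 and 22.9 ± 3.13 CPM in the control and at 2, 4 and 6 days, and NSDHL, a sterol dehydrogenase, averaged 53.4 ± 7.5, 51.1 ± 0.806, 39.1 ± 0.698 and 36.2 ± 2.62 CPM. Both were called lower at 4 and 6 days, and neither was called at 2 days. SC5D, the desaturase before DHCR7, was lower at each exposure (-0.32, -0.74 and -0.83), though the call at 2 days was lost without control replicate 1 (adjusted p = 0.0549).

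A pair of late enzymes was called higher. HSD17B7, a sterol ketone reductase, averaged 18.5 ± 0.632, 24.7 ± 1.59, 17.1 ± 1.03 and 18.8 ± 1.4 CPM in the control and at 2, 4 and 6 days, higher at 2 days by 0.42 ± 0.1 (adjusted p = 0.00159) and lower at 4 days than at 2 days by 0.53 on the log2 scale. It has 2 named pseudogenes that could share reads. TM7SF2, a sterol reductase whose reaction the lamin B receptor also performs, averaged 3.81 ± 0.209, 5.24 ± 0.303, 5.22 ± 1.18 and 5.46 ± 0.592 CPM. It was called at 2 days (0.45 ± 0.18, adjusted p = 0.0447) and 6 days (0.52 ± 0.18, 0.0219) but not at 4 days (0.45 ± 0.18, 0.0546), and the test over all 4 groups did not call it (0.0567). The 2-day call was lost on leaving out any 1 of its 6 libraries (adjusted p = 0.0539 to 0.103), and the 6-day call on leaving out control replicate 1 (0.0548), control replicate 2 (0.0571) or the third 6-day library (0.104). Without 4-day replicate 2 TM7SF2 was called at 4 days (0.57, adjusted p = 0.0264).

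FDFT1, squalene synthase, differed more between libraries of a group than between groups. It had 21.2, 51.2 and 20.2 CPM in control libraries, 34.8, 17.9 and 37.9 CPM at 2 days, 38.3, 34.9 and 13.5 CPM at 4 days, and 12.5, 28.9 and 31.3 CPM at 6 days. Its log2 fold changes carried SEs of 0.56, against 0.074 to 0.18 for the other sterol enzymes. A change of the size seen in many of its neighbours could therefore have gone uncalled for FDFT1.

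**Figure D2:**
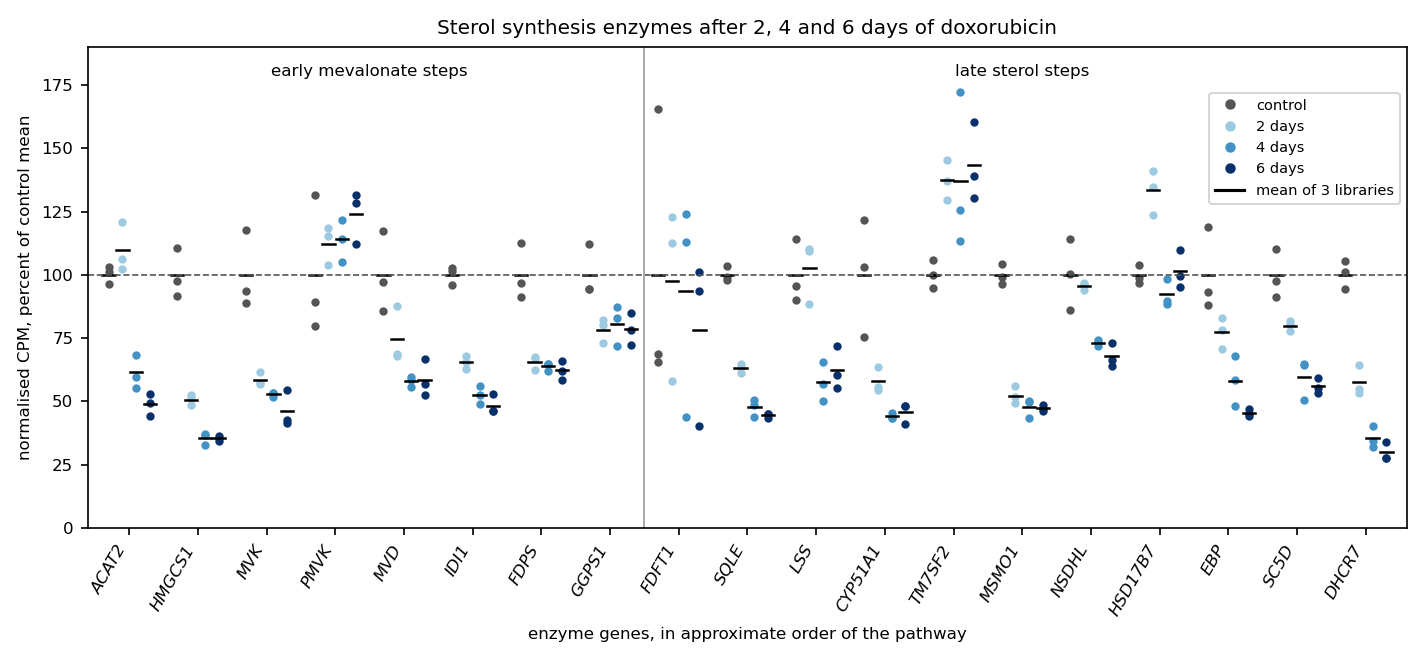
Normalised CPM of the 19 sterol enzymes in each library as a percent of that gene's control mean (y axis), in approximate pathway order (x axis), for control and 2, 4 and 6 days, with a bar for the mean of 3 libraries. Most exposed libraries lie under the dashed line at 100, DHCR7 and HMGCS1 are lowest at 6 days, and FDFT1 scatters widely in every group.

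Summed over the 19 enzymes, control libraries had 2026 to 2129 CPM, 2-day libraries 1401 to 1450.2 CPM, 4-day libraries 1008 to 1134 CPM and 6-day libraries 1014 to 1029.7 CPM. The ranges of the control, the 2-day and the later libraries did not overlap, and those at 4 and 6 days did.

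Among the genes that control SREBP, SREBF2 encodes SREBP-2, the main activator of sterol genes, and SREBF1 encodes SREBP-1, the main activator of fatty acid genes. SREBF2 (ENSG00000198911.12, chromosome 22, 41833079 to 41907308) had 261, 273 and 244 CPM in control libraries, 169, 202 and 186 CPM at 2 days, 177, 195 and 170 CPM at 4 days, and 174, 166 and 198 CPM at 6 days. SREBF1 (chromosome 17, 17810399 to 17837002) had 42.4, 49.1 and 44 CPM in control libraries, 30.1, 34 and 26.6 CPM at 2 days, 25.8, 26.6 and 29.9 CPM at 4 days, and 25.7, 23.9 and 28.3 CPM at 6 days. Both were below the control in all 9 exposed libraries, and the 3 exposures overlapped with each other. SREBF2 fell by 0.48 to 0.53 on the log2 scale and SREBF1 by 0.58, 0.72 and 0.79 (SE 0.1 each, adjusted p at 6 days 9.18e-07).

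SCAP, the escort of both SREBPs (chromosome 3, 47413694 to 47477126), had 30.6, 35.6 and 28.7 CPM in control libraries, 26.3, 30.4 and 25.5 CPM at 2 days, 28.2, 27.2 and 28.7 CPM at 4 days, and 27.7, 24 and 28.8 CPM at 6 days. Its log2 fold changes of -0.21, -0.17 and -0.24 (SE 0.1 each) were not called (adjusted p = 0.102, 0.205 and 0.0691). Without control replicate 3, SCAP was called lower at 6 days (-0.30, adjusted p = 0.0398).

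The 2 INSIG genes, whose proteins hold SCAP in the endoplasmic reticulum, went in opposite directions. INSIG1, itself a target of SREBP (ENSG00000186480.13, chromosome 7, 155297776 to 155310235), had 641, 599 and 620.3 CPM in control libraries, 151, 182 and 148 CPM at 2 days, 173, 171 and 144 CPM at 4 days, and 135, 137 and 141 CPM at 6 days. Most of the fall was present by 2 days, with no exposed library above 182 CPM and no control library under 599 CPM. The log2 fold changes were -1.95 ± 0.089, -1.93 ± 0.088 and -2.17 ± 0.089 (adjusted p = 4.42e-15, 9.92e-15 and 8.24e-16), so INSIG1 was 3.87-fold lower at 2 days and 4.5-fold lower at 6 days. INSIG2 (ENSG00000125629.15, chromosome 2, 118088452 to 118110997) had 32.4, 27.1 and 29.8 CPM in control libraries, 35.1, 31.5 and 32.8 CPM at 2 days, 41.6, 39.9 and 51.6 CPM at 4 days, and 53.7, 57.3 and 47.1 CPM at 6 days. It overlapped the control at 2 days (0.15 ± 0.11, adjusted p = 0.254) and was higher at 4 days (0.57 ± 0.11, 0.000135) and 6 days (0.82 ± 0.11, 7.59e-07).

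**Figure D3:**
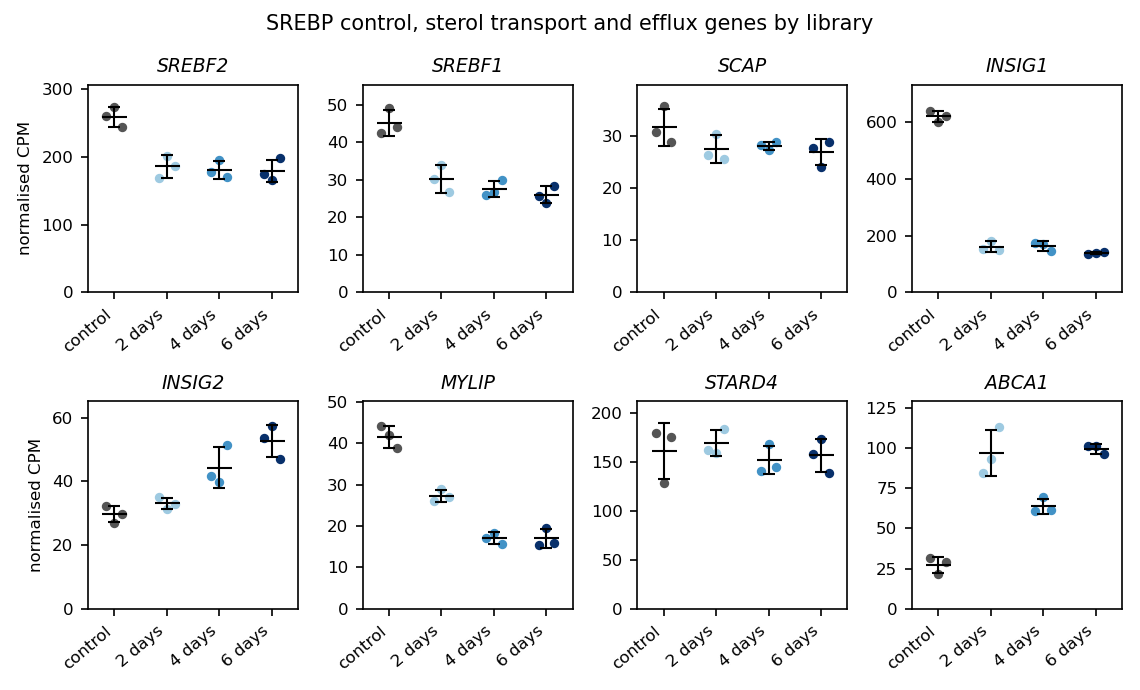
Normalised CPM (y axis, from 0) of the SREBP control, transport and efflux genes in each of 3 libraries in the control and at 2, 4 and 6 days (x axis), with bars for mean ± SD. INSIG1 drops to 138 to 163 CPM in all exposed groups, against 620.2 CPM in the control, while INSIG2 and ABCA1 have their highest means at 6 days.

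MYLIP encodes IDOL, an LXR-induced ubiquitin ligase that sends lipoprotein receptors to degradation. It had 44.1, 42 and 38.8 CPM in control libraries, 26, 28.9 and 27 CPM at 2 days, 17.1, 18.4 and 15.6 CPM at 4 days, and 15.4, 19.6 and 16 CPM at 6 days. All exposed libraries were below the control, and the 4-day and 6-day libraries were below the 2-day ones. MYLIP (chromosome 6, 16129125 to 16148248) fell by 0.61 ± 0.1, 1.29 ± 0.11 and 1.29 ± 0.11 on the log2 scale (adjusted p = 2.6e-05, 6.05e-10 and 3.47e-10).

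STARD4, a soluble carrier of cholesterol between membranes, had 179.6, 128 and 175 CPM in control libraries, 162, 159.5 and 184 CPM at 2 days, 141, 168 and 145 CPM at 4 days, and 158, 173 and 139 CPM at 6 days. The groups overlapped, and its log2 fold changes of 0.067, -0.087 and -0.038 (SE 0.11 each) were not called. Control replicate 2 was its lowest control library, and without it STARD4 was called at 4 days (-0.23, adjusted p = 0.0467).

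ABCA1, another LXR target, moves cholesterol and phospholipid out of the cell to apolipoprotein A-I. It had 31.3, 21.5 and 29.2 CPM in control libraries, 84.8, 93.1 and 113 CPM at 2 days, 60.6, 69.3 and 61.5 CPM at 4 days, and 101, 101 and 96.1 CPM at 6 days. All exposed libraries were above all control libraries, and the 4-day libraries lay below those of both other exposures. ABCA1 (ENSG00000165029.17, chromosome 9, 104781002 to 104928237, minus strand) rose by 1.82 ± 0.12, 1.22 ± 0.12 and 1.86 ± 0.12 on the log2 scale (adjusted p = 7.23e-12, 1.38e-08 and 5.15e-12), which is 3.54-fold, 2.33-fold and 3.63-fold. ABCA1 and MYLIP, both known as LXR targets, had opposite signs. ABCG1, the other exporter, had 1 count over the control libraries, 1 at 2 days, 3 at 4 days and 2 at 6 days, too few for a comparison.

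Fatty acid synthesis draws on citrate, which ACLY splits to acetyl-CoA, ACACA carboxylates to malonyl-CoA and FASN builds into palmitate. Of the 7 genes, 4 were lower at 2 days, 6 at 4 days and 5 at 6 days, and 1 was higher at 6 days. Their medians were -0.50, -0.80 and -0.63. The shares called were 57.1%, 85.7% and 85.7%, against 47.2%, 36.5% and 43.7% of all tested genes. FASN (ENSG00000169710.9, chromosome 17, 82078333 to 82098332, minus strand) had 406, 445 and 434 CPM in control libraries, 195, 281 and 221 CPM at 2 days, 125, 163 and 146 CPM at 4 days, and 125, 115 and 169 CPM at 6 days. The highest exposed library, at 281 CPM, was below the lowest control library, at 406 CPM. FASN fell by 0.89 ± 0.15, 1.57 ± 0.15 and 1.65 ± 0.15 on the log2 scale (adjusted p = 0.000158, 9.11e-07 and 3.95e-07).

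SCD, the stearoyl-CoA desaturase that makes oleate (ENSG00000099194.6, chromosome 10, 100347124 to 100364834), was the most abundant gene of the set. It had 1892, 1628 and 1968 CPM in control libraries, 974, 1141 and 1043 CPM at 2 days, 509, 594 and 504 CPM at 4 days, and 505, 558 and 547 CPM at 6 days. The control, the 2-day and the later libraries formed 3 steps with no overlap, and the 4-day and 6-day libraries overlapped. SCD fell by 0.80 ± 0.088, 1.77 ± 0.09 and 1.77 ± 0.09 on the log2 scale (adjusted p = 4.87e-08, 6.39e-14 and 4.22e-14).

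ACLY averaged 561 ± 18.4 CPM in the control, 519 ± 18.8 CPM at 2 days, 445 ± 16 CPM at 4 days and 431 ± 8.36 CPM at 6 days, and was called lower at 4 and 6 days (-0.33 and -0.38). ACACA, which was lower at each exposure, averaged 81.6 ± 13.7, 54.1 ± 10.6, 47.0 ± 10.6 and 52.6 ± 1.53 CPM. Its largest log2 difference was -0.80 ± 0.16 at 4 days (adjusted p = 0.00148). The desaturases of polyunsaturated fatty acids, neighbours on chromosome 11, differed from each other late in the course. FADS2 averaged 249 ± 22.2, 237 ± 18.8, 139.9 ± 9.26 and 134 ± 12.2 CPM and was lower at 4 and 6 days (-0.83 and -0.89), while FADS1 averaged 415 ± 7.57, 395 ± 10.5, 321 ± 22.5 and 416 ± 17.4 CPM and was called lower at 4 days only (-0.37 ± 0.073, adjusted p = 0.000274).

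ELOVL6, which lengthens palmitate, was the gene called in both directions. It averaged 37.7 ± 1.54 CPM in the control, 26.8 ± 0.922 CPM at 2 days, 43.2 ± 3.44 CPM at 4 days and 44.6 ± 2.39 CPM at 6 days. It was lower at 2 days (-0.50 ± 0.091, adjusted p = 7.84e-05), not called at 4 days (0.19 ± 0.089, 0.0914) and higher at 6 days (0.24 ± 0.088, 0.0286). The 6-day call was lost on leaving out the second (adjusted p = 0.0563) or the third (0.0971) control library, or the second (0.113) or the third (0.0656) 6-day library, and without 4-day replicate 3 the gene was called at 4 days (0.26, 0.0395).

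**Figure D4:**
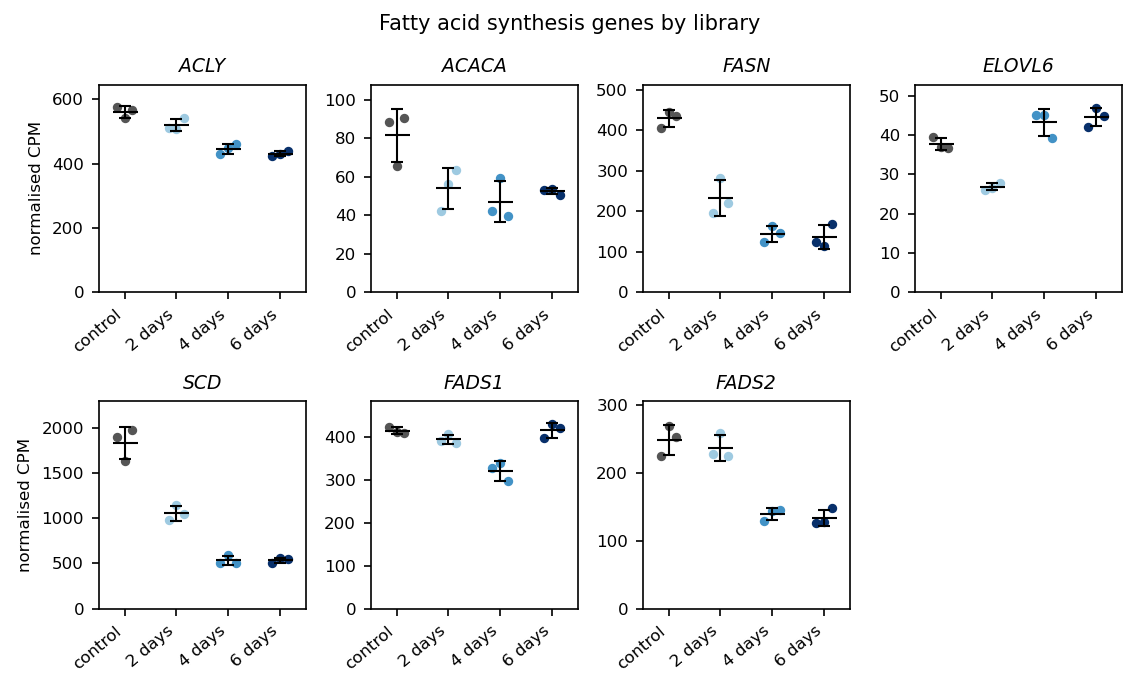
Normalised CPM (y axis, from 0) of the 7 fatty acid synthesis genes in each of 3 libraries in the control and at 2, 4 and 6 days (x axis), with bars for mean ± SD. SCD and FASN step down at 2 and 4 days, FADS2 steps down at 4 days, and ELOVL6 is low at 2 days and above the control mean at 4 and 6 days.

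Levels were also set per kilobase of all annotated exons, used in these cells or not, which allows only a rough comparison of genes. SCD had the highest control level at 341 CPM per kb, followed by INSIG1 at 169.9, ACLY at 108, HMGCS1 at 99.9 and MSMO1 at 82.6 CPM per kb. The lowest were TM7SF2 at 1.12, ABCA1 at 2.41 and CYP51A1, whose counts are uncertain, at 2.43 CPM per kb. At 6 days SCD was at 100.1, INSIG1 at 37.8 and ABCA1 at 8.77 CPM per kb. The highest group mean was that of the control for 24 of the 34 tested genes, and the lowest was that of 6 days for 20 and of 4 days for 8. These counts rank means whether or not a difference was called, and the shares over all tested genes were not counted.

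The exposures were then compared with each other. Between 4 and 2 days, 18 of 34 genes were lower and 2 higher at 4 days, where 18.5% of all tested genes were lower, 16.3% higher and 34.8% called. The 2 higher genes were ELOVL6 (0.69 ± 0.09) and INSIG2 (0.42 ± 0.11). The lower ones included SCD (-0.97 ± 0.088, adjusted p = 5.08e-09), ACAT2 (-0.85 ± 0.089), LSS (-0.84 ± 0.12), FADS2 (-0.76 ± 0.088), DHCR7 (-0.70 ± 0.1), FASN (-0.69 ± 0.15) and MYLIP (-0.68 ± 0.11). The calls for EBP were lost without 2-day replicate 1 (adjusted p = 0.0623) or 4-day replicate 2 (0.0925), for MVD without 2-day replicate 2 (0.145) or 4-day replicate 1 (0.0736), and for ACLY without 2-day replicate 3 (0.0694) or 4-day replicate 1 (0.0783). ACACA was called without 4-day replicate 2 (-0.41, adjusted p = 0.036).

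Between 6 and 4 days few genes of the set were called: 2 were higher and 1 lower at 6 days, where 3.05% of all tested genes were higher, 3.73% lower and 6.78% called. ABCA1 (0.64 ± 0.11, adjusted p = 0.000811) and FADS1 (0.37 ± 0.073, 0.00244) were higher at 6 days, and both had been lower at 4 than at 2 days (-0.60 ± 0.11 and -0.30 ± 0.073). ACAT2 was lower (-0.32 ± 0.09, adjusted p = 0.0292), a call lost without 4-day replicate 1 (0.209), 4-day replicate 2 (0.0549), 6-day replicate 2 (0.0858) or 6-day replicate 3 (0.145). EBP was called lower without 4-day replicate 2 (-0.47, adjusted p = 0.0445) and INSIG1 without 4-day replicate 3 (-0.32, 0.0462).

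Between 6 and 2 days, 18 genes were lower and 2 higher at 6 days, where 23.0% of all tested genes were lower, 19.8% higher and 42.8% called. ACAT2 (-1.17 ± 0.09), SCD (-0.97 ± 0.088), DHCR7 (-0.95 ± 0.1), FADS2 (-0.82 ± 0.088), EBP (-0.77 ± 0.13) and FASN (-0.77 ± 0.15) had the largest differences, and ELOVL6 (0.74 ± 0.09) and INSIG2 (0.67 ± 0.1) were higher. INSIG1 was called (-0.22 ± 0.087, adjusted p = 0.0472), a call lost without 2-day replicate 2 (0.314) or any 1 of the 6-day libraries (0.0673 to 0.127). The call for MVD was lost without 2-day replicate 2 (adjusted p = 0.175), 6-day replicate 1 (0.0724) or 6-day replicate 2 (0.117). The call for MVK (-0.34) was lost without any 1 of the 2-day libraries (0.0544 to 0.105), 6-day replicate 1 (0.15) or 6-day replicate 2 (0.135), and SREBF1 was called without 2-day replicate 3 (-0.30, 0.0386).

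Other genes of lipid metabolism were counted in 5 lists, and in each the 3 called genes with the largest difference from the control and at least 10 CPM in their higher group are named. Beside the counts, the share of all 17320 tested genes called in either direction was 47.2% at 2 days, 36.5% at 4 days and 43.7% at 6 days. Of 15 genes of SREBP processing and sterol sensing, 9 were lower and 2 higher at 2 days, 3 lower and 2 higher at 4 days, and 4 lower and 2 higher at 6 days. The shares called, 73.3%, 33.3% and 40%, were above that of all genes at 2 days and slightly below it at 4 and 6 days. ERLIN1, a membrane scaffold protein of the endoplasmic reticulum, averaged 125 ± 2.92 CPM in the control, 73.0 ± 2.39 CPM at 2 days, 121 ± 7.64 CPM at 4 days and 116 ± 7.63 CPM at 6 days, and only its 2-day difference was called (-0.78 ± 0.078). PAQR3, which tethers SCAP at the Golgi, was lower at 2 and 4 days (-0.75 ± 0.13 and -0.40 ± 0.12). RNF139, a ubiquitin ligase with a sterol-sensing domain, was lower at each exposure, by 0.34, 0.35 and 0.67 on the log2 scale. Leaving out 4-day replicate 3 ended the 4-day calls of both (adjusted p = 0.0931 for PAQR3 and 0.0611 for RNF139) and left 0 genes of this list lower at 4 days. Without control replicate 1, 1 was lower at 4 days and PAQR3 was not called (0.117), and without 2-day replicate 2 RNF139 was not called at 2 days (0.0748). PAQR3 was called lower at 6 days without control replicate 2 (0.0129), and without 6-day replicate 1 the list had 2 genes lower at 6 days. Its higher genes at 4 days numbered 1 without control replicate 2, 4-day replicate 1 or 4-day replicate 2.

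Of 17 genes of lipoprotein receptors, endosomal sterol exit and sterol esters, 8 were higher and 4 lower at 2 days, 8 higher and 3 lower at 4 days, and 6 higher and 3 lower at 6 days. The shares called were 70.6%, 64.7% and 52.9%, against 47.2%, 36.5% and 43.7% of all genes. LRP8, a receptor for apolipoprotein E and reelin, averaged 81.4 ± 4.17, 32.6 ± 2.37, 49.6 ± 4.78 and 37.6 ± 2.16 CPM in the control and at 2, 4 and 6 days (log2 fold changes -1.32, -0.72 and -1.11). VLDLR, its near relative, was lower as well (-1.15, -0.52 and -0.66), whereas LRPAP1, the chaperone of this receptor family, averaged 39.9 ± 3.99, 92.4 ± 4.01, 72.4 ± 1.16 and 79.9 ± 1.61 CPM and was higher at each exposure. Without control replicate 1, or without control replicate 3, 5 genes of this list were higher at 4 days.

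Of 13 LXR and oxysterol genes 11 were tested, with 3 higher and 1 lower at 2 days, 2 higher and 0 lower at 4 days, and 2 higher and 1 lower at 6 days. The shares called were 36.4%, 18.2% and 27.3%, each below that of all genes (47.2%, 36.5% and 43.7%). Without control replicate 3, 1 was lower at 4 days. PLTP, the phospholipid transfer protein, averaged 8.57 ± 1.97 CPM in the control, 45.5 ± 5.26 CPM at 2 days, 29.1 ± 4.56 CPM at 4 days and 26.2 ± 2.6 CPM at 6 days (log2 fold changes 2.41 ± 0.14, 1.77 ± 0.15 and 1.62 ± 0.15). ABCA7, a transporter related to ABCA1, was higher at each exposure (0.68, 0.81 and 1.21), and NR1D1, a haem-binding receptor of the circadian clock, was higher at 2 days (0.94 ± 0.14). Without control replicate 2 NR1D1 was also called higher at 4 days (adjusted p = 0.0267).

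Of 12 genes of the nonsterol isoprenoid branch, 3 were higher and 3 lower at 2 days, 2 higher and 1 lower at 4 days, and 3 higher and 1 lower at 6 days. The shares called were 50%, 25% and 33.3%, near that of all genes at 2 days (47.2%) and below it at 4 days (36.5%) and 6 days (43.7%). ICMT, which methylates prenylated proteins, averaged 211 ± 8.21, 99.6 ± 10.7, 178 ± 7.07 and 195 ± 5.45 CPM in the control and at 2, 4 and 6 days. It was lower at 2 and 4 days (-1.08 and -0.24), though its 4-day call was lost without control replicate 1 (adjusted p = 0.062), 4-day replicate 1 (0.0733) or 4-day replicate 2 (0.0535). RABGGTA, a subunit of the enzyme that prenylates Rab proteins, was higher at each exposure (0.74 to 0.76), and DHDDS, of dolichol synthesis, was higher at 2 days (0.49 ± 0.08). Over all alternatives the list had 2 to 3 genes higher and 1 to 5 lower at 2 days, 1 to 2 higher and 0 to 2 lower at 4 days, and 1 to 3 higher and 0 to 1 lower at 6 days. At 2 days 1 was lower without control replicate 1. At 4 days 1 was higher without control replicate 2 or 3 or any one of the 4-day libraries, 0 were lower without control replicate 1 or 4-day replicate 1 or 2, and 2 were lower without control replicate 2. At 6 days 1 was higher without control replicate 3, and 0 were lower without control replicate 1 or 2 or 6-day replicate 1 or 2.

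Of 33 other genes of fatty acid and glycerolipid synthesis, 6 were higher and 9 lower at 2 days, 8 higher and 10 lower at 4 days, and 8 higher and 9 lower at 6 days. The shares called were 45.5%, 54.5% and 51.5%, close to that of all genes at 2 days (47.2%) and above it at 4 days (36.5%) and 6 days (43.7%). FADS3, which lies beside FADS1 and FADS2, averaged 51.1 ± 6.55, 117 ± 15.8, 70.3 ± 3.1 and 61.0 ± 3.62 CPM in the control and at 2, 4 and 6 days, higher at each exposure. Its 6-day call was lost without control replicate 1 (adjusted p = 0.166) or 3 (0.167), or without 6-day replicate 2 (0.0719) or 3 (0.155). A pair of acyl-CoA synthetases had opposite signs: ACSL3 averaged 433 ± 36.3, 303 ± 4.1, 242 ± 20.5 and 213 ± 14.2 CPM, and ACSL1 averaged 6.16 ± 0.448, 9.68 ± 0.547, 10.3 ± 0.621 and 12.8 ± 0.828 CPM. ACSL3 was lower at each exposure (-0.52, -0.84 and -1.02) and ACSL1 higher (0.65, 0.74 and 1.05).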

How the data were processed

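The authors deposited raw counts per gene, whole numbers with no normalization, for 60607 gene IDs of Ensembl in each of 12 libraries. The tools HTSeq 0.13.5, STAR 2.7.8, fastp 0.23.2 and Trimmomatic 0.38 and the build GRCh38.p13 are named, without roles, per the submitters' processing notes. The strand setting of the counting is not given in the sources used here. Genes overlapping on opposite strands may share reads.

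Counts were tested with edgeR 4.0.16 (R 4.3.3). Genes were kept by filterByExpr (minimum count 10, minimum total 15), libraries were scaled by TMM, and 1 model with 4 group means was fitted to all 12 (glmQLFit, robust, 8 residual degrees of freedom, common biological coefficient of variation 0.0887). The 6 comparisons and a test over all 4 groups used glmQLFTest, 2-sided, with Benjamini-Hochberg adjustment over 17320 genes. DESeq2 1.42.0, other scalings and filters, a replicate block and leaving out each library were alternatives. The procedure was also run on simulated data for 2 days against the control. Of 67, 67 and 66 genes changed by 1.5-fold, 2-fold and 4-fold, 85.1%, 95.5% and 100% were recovered, and 14 of 201 calls were false. Far fewer genes changed there than in the data, where 47.2% were called, so the run does not show how the procedure does in that setting. No pair of libraries agreed closely enough to be copies.

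Gene coordinates and exon lengths are from GENCODE release 29 (GRCh38) and promoters from RefSeq (GRCh38.p14). The genes and the other lists were chosen with earlier results of these data known. All genes of the set are accounted for, with every library's value for those called at a log2 difference of at least 1 from the control and for all genes of SREBP control, transport and efflux. Genes not fixed on this list are named by size of change, as stated beside them.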

Additional observations from a re-analysis of the deposited data

Results flagged for a closer look

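ELOVL6 was called lower than the control at one exposure and higher at another, and the test of that difference, 6 days against 2 days, gave a log2 fold change of 0.74 (adjusted p = 4.21e-07 in edgeR). Its 3 libraries at 6 days lay above all 3 at 2 days, and 52.8% of all tested genes had no overlap between these groups. ELOVL6 was picked by its calls in these same libraries, so the test and the separation are not separate evidence.

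Each length of exposure was also tested directly against the others. Of the 34 tested genes, 20 differed between 4 and 2 days (58.8%, against 34.8% of all tested genes), 3 between 6 and 4 days (8.82%, against 6.78%) and 20 between 6 and 2 days (58.8%, against 42.8%). The share between 6 and 4 days was near that of all genes.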

How the results depend on the processing

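No gene of the set changed direction with a call on both sides under any alternative run. Of the calls against the control, 18 of 23 at 2 days, 26 of 27 at 4 days and 25 of 28 at 6 days held under every alternative, and so did 17 of 20 for 4 against 2 days, 2 of 3 for 6 against 4 days and 15 of 20 for 6 against 2 days. With library totals as the only scaling, the all-gene median shifted to -0.14 at 2 days against the control (3203 genes higher and 5386 lower, beside 4122 and 4058) and to 0.16 for 6 against 2 days (5265 higher and 2538 lower, beside 3437 and 3977). It gave 3842 higher and 2443 lower for 4 against 2 days (beside 2828 and 3203), and 1006 higher and 350 lower for 6 against 4 days (beside 528 and 646). In this last comparison it left 0 genes of the set lower and turned their median to 0.045, beside -0.028. Under it 23 of the 34 were lower and 2 higher at 2 days, while SCAP, ACLY and FADS1 gained calls and TM7SF2 lost its call. For 6 against 2 days it left 13 lower and 3 higher.

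Fitting the 2 compared groups alone gave 947 genes higher and 2 genes of the set lower for 6 against 4 days. Leaving out 1 library at a time gave 259 to 431 genes higher and 307 to 454 lower in that comparison, with 0 to 2 genes of the set lower, and at 6 days against the control 2 to 4 genes of the set higher, the lowest without 6-day replicate 3. Without control replicate 2 and 2-day replicate 3 together, chosen after seeing the data for their mitochondrial share, the 2-day calls for MVD (adjusted p = 0.117), GGPS1, TM7SF2 and EBP were lost. With no filter on low counts TM7SF2 at 2 days, GGPS1 at 4 days and ELOVL6 at 6 days were not called (adjusted p = 0.0882, 0.0503 and 0.0676). The cause was not tested.

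Libraries with the same replicate number did not deviate together over all tested genes (correlations -0.171 to 0.0963 over 18 pairs, and -0.217 to 0.17 over 36 other pairs). Such correlations can miss an effect on few genes, so whether the numbers mark a shared culture or batch is not known. With the replicate number as a block, 20 genes of the set were lower and 2 higher at 2 days, 25 and 2 at 4 days and 24 and 4 at 6 days, and the calls for TM7SF2 at 2 days (adjusted p = 0.0532) and INSIG1 for 6 against 2 days (0.0624) were lost. Counts of 59 to 187 per library for CYP51A1, 55 to 132 for TM7SF2 and 113 to 266 for PMVK limit what could be detected for them at this depth. The other lipid lists were run under the same alternatives, a step added after seeing the data, and no call of a named gene there changed direction.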
